A study of Mus musculus with 6 samples.

Results

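The genes examined here are 37 mouse genes of fatty acid oxidation, taken from the gene tables by symbol, out of 22609 genes listed. By textbook location, 20 of them act in mitochondria, 15 in peroxisomes and 2, Eci2 and Crat, in both compartments. Stromal cells from the inguinal white fat (iWAT) of male C57BL6 mice aged 3 weeks were cultured as primary cells, differentiated to adipocytes, and compared in 3 samples labelled control and 3 labelled miR182 overexpression. Per the sample labels, the cells were transfected by electroporation with a control vector or with miR182, whereas the study's general methods describe mice aged 4 weeks and a miR-182-5p mimic delivered with a lipid reagent. The RNA-Seq of these cells belongs to a study of how miR-182-5p in adipocytes acts on macrophages and thermogenesis in fat, and the labels name no macrophages in the sequenced cultures. The groups share strain, sex, age, depot and differentiation, and differ in the transfected construct. No label or method says whether the samples of a group came from separate animals or cultures, so p-values measure the spread between these samples, which may be technical.

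Mitochondrial beta-oxidation shortens fatty acids after the carnitine shuttle has carried them across the inner membrane, in repeated rounds of dehydrogenation, hydration, a second dehydrogenation and thiolytic cleavage, and electron transfer flavoprotein passes the electrons of the acyl-CoA dehydrogenases on to the respiratory chain. Peroxisomes shorten very-long-chain and branched fatty acids with their own enzymes, which are imported by peroxins, and hand the products to mitochondria. White adipocytes mainly store and release fatty acids, and their oxidation capacity is known to be higher in beige and brown fat. A microRNA pairs mainly through its seed, bases 2 to 8 from its 5′ end, with sites in the 3′-UTR of mRNAs. The overexpressed miRNA is shown because its seed defines the sites searched in these genes. Its mature sequence, from RefSeq (GRCm38.p6, chr6:30165962-30165986, minus strand), has the seed in capitals.
miR-182-5p: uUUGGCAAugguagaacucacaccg
The 7-base DNA match to this seed is TTGCCAA. The study's methods print another mature sequence under this name, with a different seed, and the matches counted here are to the RefSeq seed alone. The gene Mir182 was listed at 0 reads in all 6 samples, which checks nothing, since libraries of poly(A) RNA leave out mature miRNAs.

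Each sample had 25869810 to 28796712 reads counted on genes, and the first principal component of all genes (64.4% of the variance) separated the groups. The differentiated state was checked against its defining markers. The 10 adipocyte markers summed to 7428 to 7810 CPM (reads scaled to the TMM-adjusted library size) in control samples and to 5037 to 5708 in miR182 overexpression samples. Of these 10 markers, 7 were lower and 1 was higher (Lep) at an adjusted p under 0.05 (edgeR's quasi-likelihood test, Benjamini-Hochberg adjustment over 13117 genes). Over all genes tested, 23.5% were lower and 23.2% higher by this rule, the shares to set beside each marker count here. Fabp4, the fatty acid binding protein of adipocytes, had a log2 fold change of -0.68, and Plin1, the lipid droplet coat protein, had one of -0.06 that did not pass (adjusted p = 0.316). Progenitor markers were also lower (5 of 6 tested, with 1 higher), whereas 3 of 4 tested smooth muscle or pericyte markers were higher and their sum went from 3446 to 3614 CPM in control samples to 4131 to 4488 CPM. The macrophage markers summed to 12.4 to 15.8 CPM in all 6 samples (1 of 4 tested, Lyz2, was lower), the endothelial markers to 4.97 to 9.15 CPM with Cldn5 at 0 (1 of 3 tested, Tek, was lower), and the skeletal muscle markers to 18.9 to 33.3 CPM with Ckm and Myh4 at 0 (1 of 2 tested, Acta1, was higher). Ucp1, the uncoupling protein of beige and brown adipocytes, had 0 to 6 reads per sample, and 1 of 4 tested beige or brown markers was lower. In these bulk cultures fewer adipocytes and less of an mRNA per adipocyte cannot be told apart, and what the shift in adipocyte markers contributes to the values below was not tested.

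Of the 37 fatty acid oxidation genes, 36 passed the filter on low counts. Of these 36, 23 were lower and 1 was higher (Acot2) in miR182 overexpression samples at an adjusted p under 0.05, and 12 did not pass. Over all 13117 genes tested, 23.5% were lower and 23.2% were higher by the same rule, 46.7% in either direction. Such shares depend on read counts, which were not matched between the 36 genes and all genes. The median log2 fold change of the 36 genes was -0.14, against -0.004 over all genes. The falls were small: 1 gene, Etfdh, passed both cutoffs the study states (at least 1.5-fold and an adjusted p under 0.05), which 5.48% of all genes passed as lower, 1.97% as higher and 7.45% in either direction. The 3 control values and the 3 miR182 overexpression values did not overlap in 29 of the 36 genes, 24 lower and 5 higher, whereas over all genes this held for 54.8% (27.5% lower and 27.3% higher). Without control replicate 2 the number higher was 4 and the number lower 21, and without control replicate 3 or miR182 overexpression replicate 3 a second gene, Acadvl, passed both cutoffs. Together the 37 genes took 0.457% to 0.474% of the reads of control samples and 0.392% to 0.415% of those of miR182 overexpression samples.

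**Figure D1:**
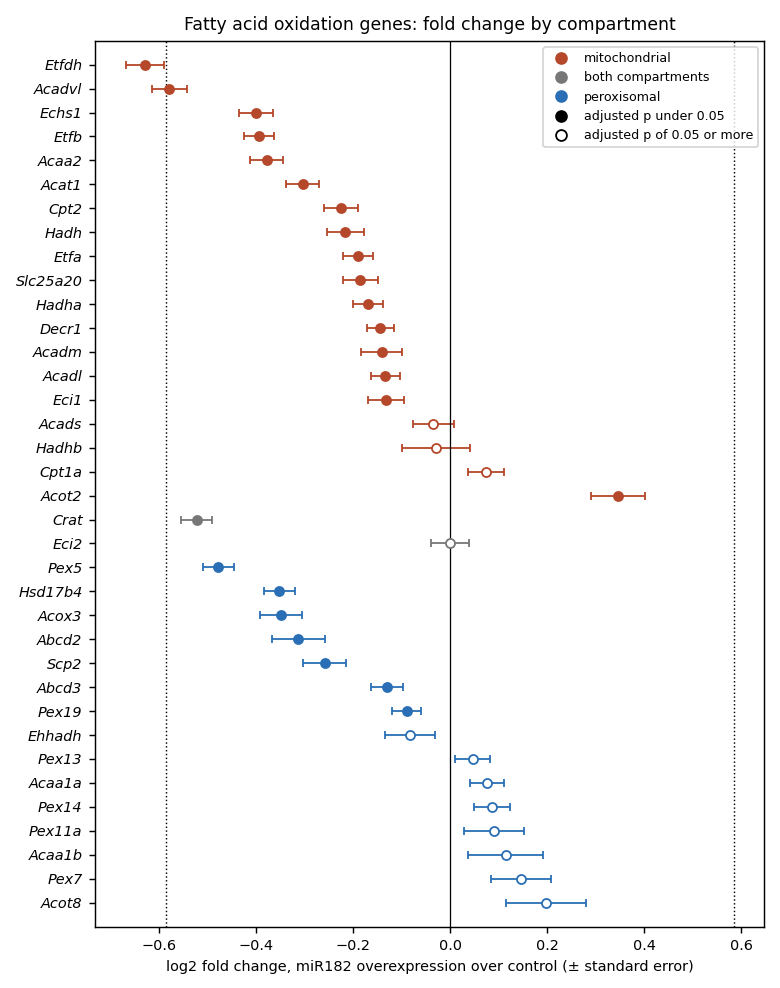
Log2 fold change of miR182 overexpression over control for the 36 fatty acid oxidation genes tested, with bars of ± 1 standard error, in red for mitochondrial, grey for both compartments and blue for peroxisomal genes. Filled points passed an adjusted p under 0.05, dotted lines mark 1.5-fold, and Etfdh is the only point estimate beyond a dotted line.

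The mitochondrial and the peroxisomal genes were set side by side, as the comparison of the compartments. Of 19 mitochondrial genes tested, 15 (78.9%) were lower and 1 was higher, with a median log2 fold change of -0.18. Of 15 peroxisomal genes tested, 7 (46.7%) were lower and none was higher, with a median of -0.08. Both shares lie above the 23.5% of all genes, but a call also depends on read counts, and these differ between the sets. The lowest count in a sample was 633 reads among the mitochondrial and 240 among the peroxisomal genes tested, and the filter's minimum was 10. What read counts contribute to the shares was not tested. By fold change alone, 24.9% and 37.6% of all genes lay below the mitochondrial and the peroxisomal median. Among the peroxisomal genes 8 had a negative and 7 a positive fold change, and among the mitochondrial genes 17 and 2. The sets differ in make-up: 6 of the 15 peroxisomal genes are peroxins, with a median of 0.07, and the mitochondrial set has no import genes. The 6 peroxisomal oxidation enzymes had a median of -0.17 and the 2 transporters one of -0.22. In the mitochondrial set the median was -0.16 for the 12 beta-oxidation enzymes, -0.18 for the carnitine shuttle and -0.39 for the 3 electron transfer genes. Genes of a compartment are not replicates, and the difference between the compartments was not tested.

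**Figure D2:**
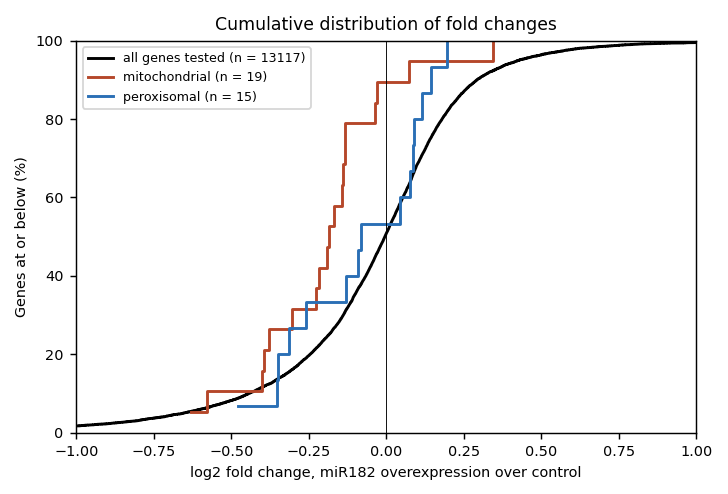
Cumulative distribution of the log2 fold change (x axis, miR182 overexpression over control) for all 13117 genes tested (black), the 19 mitochondrial (red) and the 15 peroxisomal genes (blue), as the percentage of genes at or below each value. The red line stays left of the black line through the middle of the distribution, around its median of -0.18, and the blue line crosses the black line more than once.

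The summed level of the 20 mitochondrial genes was 3088, 3161 and 3024 CPM in control replicates 1 to 3 and 2500, 2612 and 2664 CPM in miR182 overexpression replicates 1 to 3. That of the 15 peroxisomal genes was 1358, 1406 and 1350 CPM against 1187, 1235 and 1267 CPM. All 3 overexpression sums were below all 3 control sums in both compartments, and the ratio of the group means was 0.839 for mitochondrial and 0.897 for peroxisomal genes. The mitochondrial sum was 2.27, 2.25 and 2.24 times the peroxisomal sum in control samples and 2.11, 2.12 and 2.10 times in overexpression samples, so that the groups did not overlap in this ratio either. These sums are led by the genes with the most reads.

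The samples of the overexpression group did not lie equally far from the control samples. miR182 overexpression replicate 1 had the lowest level of its group in 27 of the 36 genes, and in 19 of the 23 lower ones. The median over mitochondrial genes of the log2 level minus the control mean was -0.22, -0.17 and -0.14 in miR182 overexpression replicates 1 to 3, and over peroxisomal genes it was -0.11, -0.07 and -0.04. Over the 10 adipocyte markers the same measure was -0.55, -0.39 and -0.34, lowest in the same sample. Without that sample the median log2 fold change was -0.18 for mitochondrial and -0.05 for peroxisomal genes, and 22 genes were lower. Among the control samples, replicate 2 was the highest in 25 of the 36 genes.

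**Figure D3:**
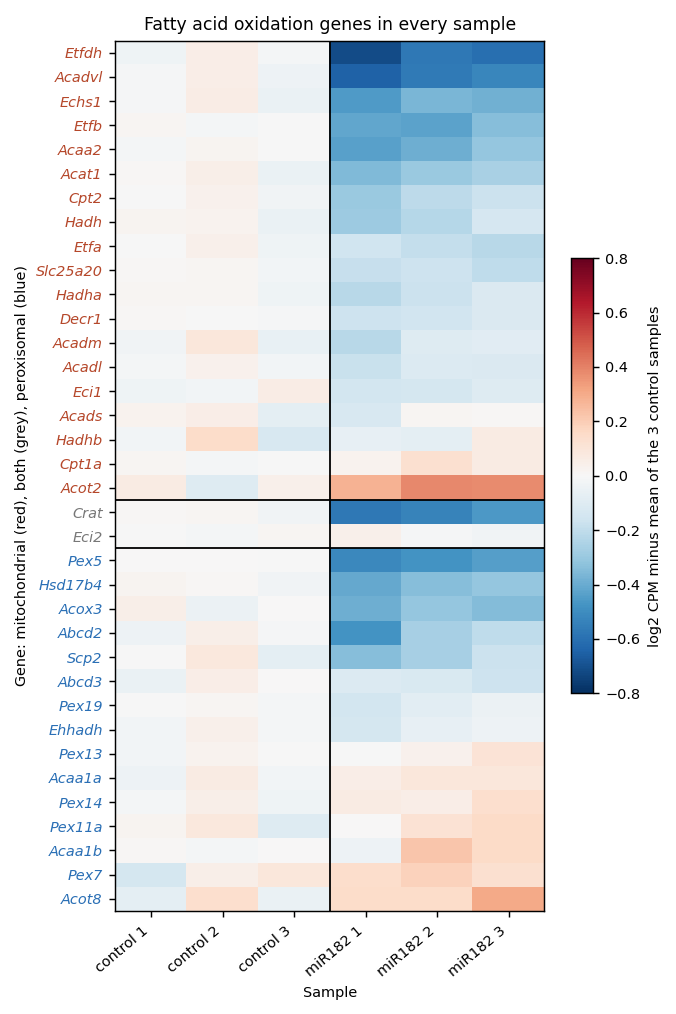
Log2 CPM minus the mean of the 3 control samples for each of the 36 genes tested (rows, ordered by compartment and fold change) in each of the 6 samples (columns), blue for lower and red for higher. The upper rows of the mitochondrial and of the peroxisomal block are blue in all 3 miR182 overexpression samples. Most of these rows are deepest in replicate 1, whereas Etfb is deepest in replicate 2. Acot2 is red in all 3 miR182 overexpression samples.

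Levels can be compared between genes only per transcript length, and are given here as CPM per kilobase of the longest coding transcript. On this scale the control level was highest for Etfb (249), Echs1 (147), Acadvl (133), Acadl (123) and Hadh (114), all mitochondrial. The highest peroxisomal levels were those of Pex19 (80.3), Scp2 (76.6) and Hsd17b4 (68.4). The median level was 73.2 for the mitochondrial and 21.3 for the peroxisomal genes. Between the mitochondrial trifunctional protein's subunits, Hadha was at 87.1 and Hadhb at 12.99, but 62.4% of the 50-base stretches of the Hadhb transcript also occur in the pseudogenes Gm13910 and Gm9108, and reads aligning to several places were not given to any gene. Of the forms of carnitine palmitoyltransferase 1, which commits long-chain acyl groups to the shuttle, Cpt1a was at 15.0 and the muscle form Cpt1b at 0.116. Another form, Cpt1c, is not among the genes examined here and was counted with the other genes of the pathways. Its control level was 15.85, close to that of Cpt1a, and its log2 fold change of -0.12 did not pass (edgeR adjusted p = 0.0534). In GENCODE M21, 2744 of the 3372 exon bases of Cpt1b are overlapped on the same strand by Gm44502, and 678 of the 1164 of Etfb by Gm45233 and Mir7051. Reads of Cpt1b and Etfb could be left uncounted as ambiguous only if the annotation used for counting, which is not given, lists these entries.

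**Figure D4:**
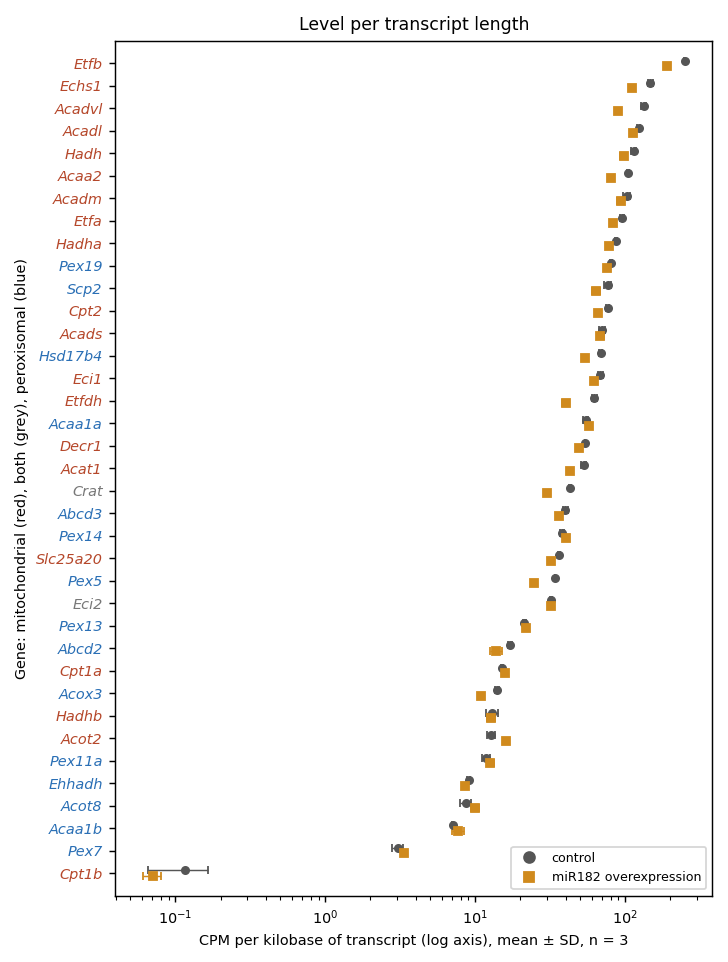
Level per transcript length in CPM per kilobase (log axis), mean ± SD of 3 samples, for all 37 genes ordered by control level, with grey circles for control and orange squares for miR182 overexpression. Mitochondrial genes (red names) fill the upper end from Etfb at 249, and the squares lie left of the circles for most genes in the upper part of the plot.

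In the carnitine shuttle, 2 of 3 genes tested were lower, against 23.5% of all genes, and 3 genes are too few to read a share from. Cpt2, which converts acylcarnitine back to acyl-CoA in the matrix, was at 181, 186 and 178 CPM in control replicates 1 to 3 and at 148, 157 and 161 CPM in miR182 overexpression replicates 1 to 3. The groups did not overlap, and the log2 fold change was -0.22 ± 0.03 (SE; adjusted p = 1e-04, edgeR). Slc25a20, the carnitine-acylcarnitine translocase of the inner membrane, fell by 0.18 on the log2 scale, with 64.7 ± 0.824 CPM in control and 56.9 ± 0.721 CPM in overexpression samples (SD, n = 3 each; edgeR adjusted p = 8.11e-04). Cpt1a, the regulated step on the outer membrane, was at 65.7, 64.2 and 64.8 CPM in control samples and at 66.2, 71.0 and 67.9 CPM in overexpression samples. Every overexpression value was above every control value by a small margin, and the log2 fold change of 0.07 did not pass (edgeR adjusted p = 0.123, and 0.0498 without miR182 overexpression replicate 1). Cpt1b had 7, 6 and 13 reads in control samples and 5, 6 and 6 reads in overexpression samples, too few to be tested.

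Of the 12 enzymes of the mitochondrial beta-oxidation cycle, 10 were lower (83.3%, against 23.5% of all genes), none was higher, and the median log2 fold change was -0.16. Acadvl, the very-long-chain acyl-CoA dehydrogenase that opens the cycle for long chains, was at 286, 298 and 279 CPM in control samples and at 184, 195 and 200 CPM in overexpression samples. The groups were far apart, with a log2 fold change of -0.58 ± 0.04 (SE; edgeR adjusted p = 1.47e-08), just short of 1.5-fold (0.585 on the log2 scale). Of its exon sequence, 1151 of 2686 bases are overlapped on the opposite strand by Dvl2, and whether the counting used the strand is not given in the sources used here. An opposite-strand overlap was annotated for exons of 12 of the 37 genes. The dehydrogenases for shorter chains were closer to control. Acadl (long chains) had a log2 fold change of -0.13 (edgeR adjusted p = 2.18e-03), Acadm (medium chains) one of -0.14 (adjusted p = 0.0132) and Acads (short chains) one of -0.03 that did not pass (adjusted p = 0.536). The call of Acadm was lost without control replicate 2 (edgeR adjusted p = 0.0802).

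The steps that follow in the cycle are hydration, dehydrogenation and cleavage. Echs1, the short-chain enoyl-CoA hydratase, was at 227, 239 and 221 CPM in control samples and at 167, 178 and 175 CPM in overexpression samples. All overexpression samples were lower, with a log2 fold change of -0.40 ± 0.03 (SE; edgeR adjusted p = 4.75e-07). Hadha, the subunit of the trifunctional protein with hydratase and dehydrogenase activity, had a log2 fold change of -0.17 (edgeR adjusted p = 5.18e-04), and Hadhb, the thiolase subunit, had one of -0.03 (adjusted p = 0.765). Hadh, the dehydrogenase for medium and short chains, had a log2 fold change of -0.22 (edgeR adjusted p = 3.63e-04). The thiolases Acaa2 and Acat1 fell by 0.38 and 0.30 on the log2 scale (edgeR adjusted p = 6.52e-07 and 5.59e-06). Acaa2 was at 156, 160 and 158 CPM in control samples against 117, 120 and 128 CPM, again without overlap. The auxiliary enzymes for unsaturated chains, the isomerase Eci1 and the reductase Decr1, fell by 0.13 and 0.14 on the log2 scale (edgeR adjusted p = 8.88e-03 and 7.16e-04), and Eci1 did not pass without control replicate 3 (adjusted p = 0.0575).

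The electron transfer flavoprotein and its oxidoreductase had the lowest median of any mitochondrial role, -0.39, with 3 of 3 genes lower (against 23.5% of all genes). Etfdh, the oxidoreductase that passes the electrons to ubiquinone, was at 144, 154 and 146 CPM in control samples and at 90.0, 99.6 and 97.6 CPM in overexpression samples. The highest overexpression value was well under the lowest control value. The mean changed from 148 ± 4.95 to 95.7 ± 5.03 CPM (SD, n = 3 each), so that Etfdh fell by 35.4% (log2 fold change -0.63 ± 0.04, SE; edgeR adjusted p = 1.55e-08). Etfb, the smaller subunit of the flavoprotein, was at 225, 220 and 222 CPM against 167, 165 and 176 CPM, and fell by 0.39 on the log2 scale (edgeR adjusted p = 1.45e-07). Etfa, the larger subunit, was at 132, 136 and 130 CPM against 119, 116 and 114 CPM, and fell by 0.19 (edgeR adjusted p = 1.69e-04). The flavoprotein subunits thus had unequal fold changes in the same samples, and the difference between them was not tested.

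Acot2, a mitochondrial thioesterase that releases free fatty acids from acyl-CoA, was the only gene of the 36 that was higher at an adjusted p under 0.05 with all 6 samples in the fit. It was at 29.1, 26.0 and 28.6 CPM in control samples and at 33.7, 36.4 and 36.2 CPM in overexpression samples. All overexpression samples were above all control samples, a rise of 27.1% (log2 fold change 0.35 ± 0.06, SE; edgeR adjusted p = 1.69e-04). Its transcript shares 27.7% of its 50-base stretches with Acot1 and other thioesterases of the family, so that reads could be lost to, or shared with, these genes.

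Crat, the carnitine acetyltransferase of mitochondria and peroxisomes, was at 183, 184 and 178 CPM in control samples and at 122, 125 and 132 CPM in overexpression samples. The groups were clearly separate, and Crat fell by 30.4% (log2 fold change -0.52 ± 0.03, SE; edgeR adjusted p = 1.6e-08). Eci2, the enoyl-CoA isomerase found in both compartments, was at 56.0 ± 0.659 CPM in control and 56.0 ± 1.35 CPM in overexpression samples (SD, n = 3 each), with an adjusted p of 0.999 in edgeR. Of the exon bases of Crat, 470 of 5388 are overlapped on the opposite strand by Dolpp1 and Gm16323.

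**Figure D5:**
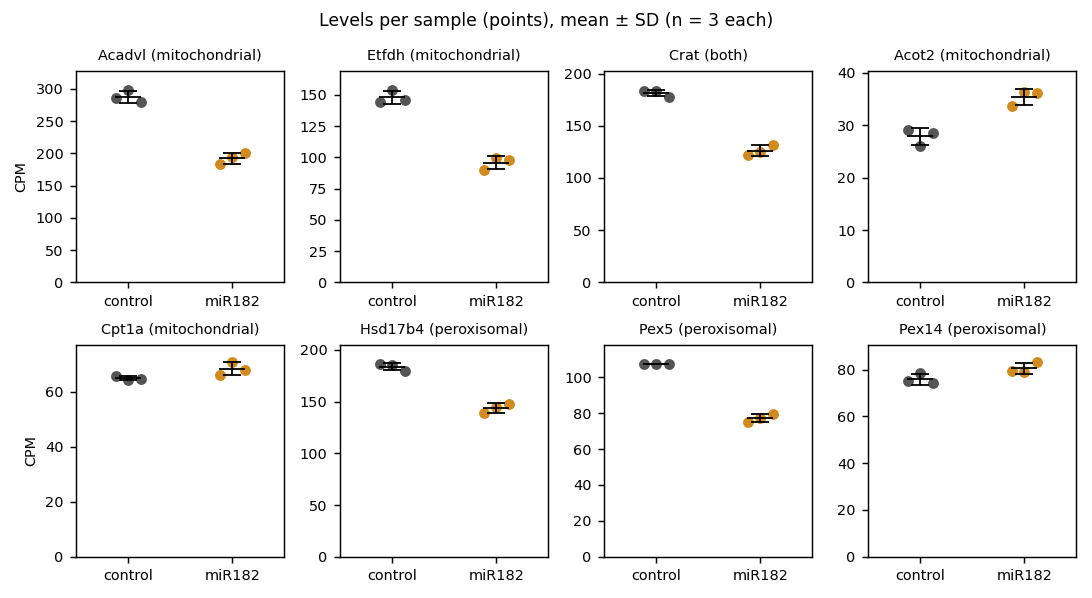
CPM in each sample (points) with the mean ± SD of 3 samples, for 4 mitochondrial genes (Acadvl, Etfdh, Acot2 and Cpt1a), Crat of both compartments and 3 peroxisomal genes (Hsd17b4, Pex5 and Pex14), in grey for control and orange for miR182 overexpression. Each y axis starts at 0, and the points of Acadvl, Etfdh, Crat, Hsd17b4 and Pex5 lie lower with miR182 overexpression, those of Acot2 lie higher, and those of Cpt1a and Pex14 lie close to the control points.

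Among the peroxisomal genes, 3 of 6 oxidation enzymes were lower, against 23.5% of all genes. Over all genes 46.7% were called in either direction, and 6 genes are too few to read a share from. Hsd17b4, the bifunctional protein for very-long-chain and branched substrates, was at 186, 185 and 180 CPM in control samples and at 139, 145 and 148 CPM in overexpression samples. All 3 overexpression values were lower, with a log2 fold change of -0.35 ± 0.03 (SE; edgeR adjusted p = 6.41e-07). Acox3, an oxidase of branched acyl-CoA, changed from 55.2 ± 1.70 to 43.4 ± 1.23 CPM (SD, n = 3 each; log2 fold change -0.35, edgeR adjusted p = 1.42e-05), and 700 of its 11521 exon bases are overlapped on the opposite strand by 4931431C16Rik. Scp2, whose locus encodes a thiolase and a sterol carrier protein, was at 202, 214 and 191 CPM in control samples and at 160, 168 and 179 CPM in overexpression samples. The groups did not overlap (log2 fold change -0.26, edgeR adjusted p = 2.94e-04), but 41.4% of the 50-base stretches of its transcript also occur in a pseudogene, Scp2-ps2. Ehhadh, the other bifunctional protein, had a log2 fold change of -0.08 (edgeR adjusted p = 0.213). The thiolases Acaa1a and Acaa1b had fold changes of 0.08 and 0.11 (edgeR adjusted p = 0.086 and 0.246), and they share 34.0% and 35.5% of the 50-base stretches of their transcripts with each other, so that their reads could be split. Acot8, a peroxisomal thioesterase, was at 9.97 ± 0.817 against 11.4 ± 0.714 CPM and did not pass (edgeR adjusted p = 0.0637).

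Both transporters of fatty acyl-CoA into peroxisomes among the 37 genes were lower, against 23.5% of all genes tested. Abcd2 was at 91.9, 98.1 and 94.3 CPM in control samples and at 68.1, 78.7 and 82.2 CPM in overexpression samples, lowest by a margin in miR182 overexpression replicate 1. Its log2 fold change was -0.31 ± 0.06 (SE; edgeR adjusted p = 3.34e-04). Abcd3 was at 134, 144 and 140 CPM against 129, 128 and 124 CPM, a narrow gap without overlap (log2 fold change -0.13, edgeR adjusted p = 4.56e-03).

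The peroxins were divided, with 2 of 6 lower (33.3%) and a median log2 fold change of 0.07. Over all genes 23.5% were lower and 46.7% were called in either direction, so this count does not set the peroxins apart. Pex5, the receptor that imports most matrix enzymes, was at 108, 108 and 108 CPM in control samples and at 75.2, 77.2 and 79.5 CPM in overexpression samples. The control values differed by less than 1 CPM and all overexpression values were far below them, so that Pex5 fell by 28.2% (log2 fold change -0.48 ± 0.03, SE; edgeR adjusted p = 3.24e-08). Pex19, the chaperone of peroxisomal membrane proteins, was at 228, 231 and 226 CPM against 207, 216 and 222 CPM. Its change was small (log2 fold change -0.09 ± 0.03, SE; edgeR adjusted p = 0.0262), and in 5 of the 6 fits that left out a sample it did not pass, with adjusted p between 0.0508 and 0.0941. The remaining peroxins did not pass: Pex7, the receptor for the other import signal, had a log2 fold change of 0.15 (edgeR adjusted p = 0.0684), Pex14 and Pex13 of the docking complex 0.09 (0.0696) and 0.05 (0.311), and Pex11a of peroxisome division 0.09 (0.251). Of the exon sequence of Pex14, 1776 of 6272 bases are overlapped on the opposite strand by Gm17029.

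The seed match of miR-182-5p was looked for in the longest annotated 3′-UTR of each gene (GENCODE M21, GRCm38). Of the 36 genes tested, 3 (8.33%) held it, against 12.5% of the 12505 genes tested that have an annotated 3′-UTR. None of the 19 mitochondrial genes held it, and the 3 that did are peroxins. The stretches are shown because they are all the matches among these genes, from the transcript strand with the match in capitals.
Pex5 (chr6:124397178-124397184, minus strand): agttgcattcTTGCCAAattcccaacc
Pex19 (chr1:172135997-172136003, plus strand): ggggtctgaaTTGCCAAtattttattg
Pex7, match nearer the stop codon (chr10:19858292-19858298, minus strand): ttaatgatttTTGCCAAgtgtggtggt
Pex7, match farther from the stop codon (chr10:19856100-19856106, minus strand): tgcctttggcTTGCCAAgttcttactc
Of these, the Pex5 match is followed by an A, which extends it to 8 bases. The genes with the match were thus the 2 peroxins that were lower, Pex5 and Pex19, and Pex7, which has 2 matches and a log2 fold change of 0.15 that did not pass. The median 3′-UTR was 574 bases for the mitochondrial genes, 1153 for the peroxisomal genes and 1192 for all genes, and a longer 3′-UTR offers more places for a match. Over all genes the median log2 fold change was -0.07 with and 0.01 without a match. A match is a description of the sequence, not a measured site.

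The promoters of these genes were searched for the elements through which peroxisome proliferator-activated receptors (PPARs) and estrogen-related receptors bind DNA, since both are known regulators of this pathway. The windows ran from 250 bases before to 50 bases after the start (RefSeq, GRCm38.p6), and 29 of the 37 genes had an entry, with 32 promoters. The PPAR element, the half-site AGGTCA repeated after 1 spacer base, on either strand with up to 2 mismatches, occurred in 3 of the 32 promoters (9.38%) and in 3.86% of all 32851. The estrogen-related receptor element TCAAGGTCA, which contains the same half-site and can overlap the repeat, occurred without mismatch in 0 of the 32 and in 0.423% of all. The 3 genes are mitochondrial and were lower, as were 15 of the 19 mitochondrial genes tested. The windows with the repeat are shown because they are all the matches, with the match in capitals on the strand of the gene.
Echs1 (chr7:140116492-140116504, minus strand): ccgctcAGGTCACGGGTCCacccct
Etfa (chr9:55512308-55512320, minus strand, repeat on the opposite strand): acacccTTACCTTTGCCCTactccc
Slc25a20 (chr9:108662142-108662154, plus strand): gaatgtAGGTGAAAGGTCGgcggag
With 3 matches nothing can be read from their fold changes, which lay between -0.40 and -0.18.

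Other genes of the same pathways were counted in lists from textbook knowledge, 94 genes in the tables of which 86 were tested. The lists were written with earlier results of these data known, so their counts are no independent check. Of these 86, 40 (46.5%) were lower and 9 were higher at an adjusted p under 0.05, against 23.5% and 23.2% of all genes. Of the 86, 10 lower and 2 higher passed the 1.5-fold cutoff as well (13.95%, against 7.45% of all genes). The median log2 fold change of the 86 was -0.11. Among 22 other genes of mitochondrial fatty acid metabolism, 10 were lower and 1 was higher (Acot10). Acad11, an acyl-CoA dehydrogenase for long chains, changed from 108 ± 1.46 to 66.8 ± 4.25 CPM (SD, n = 3 each; log2 fold change -0.69, edgeR adjusted p = 1.2e-08), and Acsm3, a synthetase for medium-chain acyl-CoA, from 0.900 ± 0.218 to 0.466 ± 0.0666 CPM (log2 fold change -0.95, edgeR adjusted p = 0.0134).

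Activation to acyl-CoA precedes both pathways. Of 8 acyl-CoA synthetases and fatty acid transport proteins tested, 5 were lower (62.5%, against 23.5% of all genes) and 1, Acsl4, was higher (log2 fold change 0.24). Acsl1, the main long-chain synthetase of adipocytes, was at 1048, 1106 and 1023 CPM in control samples and at 578, 653 and 678 CPM in overexpression samples. The highest overexpression value lay far below the control values (log2 fold change -0.74 ± 0.05, SE; edgeR adjusted p = 3.24e-08). Slc27a1, a fatty acid transport protein, changed from 76.5 ± 3.24 to 46.1 ± 1.21 CPM (SD, n = 3 each; log2 fold change -0.73, edgeR adjusted p = 7.41e-09).

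Of 26 other peroxisomal lipid enzymes and transporters tested, 15 were lower (57.7%, against 23.5% of all genes) and 3 were higher. Pxmp2, a channel protein of the peroxisomal membrane, was at 5.50, 6.47 and 5.67 CPM in control samples and at 1.78, 2.28 and 2.87 CPM in overexpression samples. The groups did not overlap (log2 fold change -1.35 ± 0.15, SE; edgeR adjusted p = 6.3e-06), and the thioesterase Acot4 fell by 0.80 on the log2 scale (adjusted p = 3.51e-03). Acox2, the oxidase of bile acid intermediates, rose at a low level, from 1.74 ± 0.297 to 3.46 ± 0.273 CPM (SD, n = 3 each; log2 fold change 0.99, edgeR adjusted p = 1.38e-04). Of 10 other peroxins tested, 4 were lower and none was higher, with Pex10, a ubiquitin ligase of the import machinery, at -0.56 (edgeR adjusted p = 8.7e-05).

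Of 20 regulators tested that act with or through PPARs, 6 were lower (30.0%) and 4 were higher. Over all genes 23.5% were lower and 23.2% were higher, so these counts do not set the regulators apart. Ppara, the receptor best known for driving fatty acid oxidation, was at 7.58, 8.08 and 6.94 CPM in control samples and at 7.43, 9.22 and 8.43 CPM in overexpression samples. The groups overlapped (log2 fold change 0.15, edgeR adjusted p = 0.24). Pparg, the receptor of adipocyte differentiation, was at 189, 195 and 186 CPM against 147, 157 and 156 CPM and fell by 0.31 on the log2 scale (edgeR adjusted p = 3.38e-06). The coactivator Ppargc1a was at 5.41 ± 1.18 and 5.12 ± 0.331 CPM (SD, n = 3 each; edgeR adjusted p = 0.668), while Ppargc1b fell by 0.75 (adjusted p = 3.05e-05). Pdk4, the kinase that restrains pyruvate oxidation and a PPAR target, changed from 49.6 ± 1.57 to 28.3 ± 1.63 CPM (log2 fold change -0.81, edgeR adjusted p = 2e-08). Of the 21 regulators listed, 2 hold a match to the miR-182-5p seed in the 3′-UTR, against 12.5% of all genes tested with an annotated 3′-UTR. They are Med1, with 1 match and a log2 fold change of -0.20, and Pdk4, with 2 matches. Whether the matches act on either gene was not tested. Fgf21, a hormone that PPARs induce, was at 0.943, 1.49 and 1.42 CPM in control samples and at 2.78, 3.57 and 3.65 CPM in overexpression samples. It rose at a low level without overlap (log2 fold change 1.37 ± 0.19, SE; edgeR adjusted p = 4.31e-05), opposite in sign to most of the oxidation genes.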

How the data were processed

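Poly(A) RNA of 6 samples of cultured cells (3 control, 3 miR182 overexpression) was sequenced from strand-specific libraries. For each sample the authors deposited a list of read counts by gene symbol, without normalization. The submitters' processing notes name bcl2fastq, TopHat2, HTSeq and the build mm9, and versions, parameters and the strand setting are not given in the sources used here. The 5 tally lines closing each list were left out; 19363264 to 21673840 alignments per sample were not unique and were not assigned to genes. Counts were filtered with filterByExpr (minimum count 10) and then normalized by TMM over the genes kept. They were tested two-sided with edgeR 4.0.16 (glmQLFit and glmQLFTest in R 4.3.3), with Benjamini-Hochberg adjustment over 13117 genes and no block. The standard error of a log2 fold change is its size divided by the square root of F. The test was tried on simulated counts first. Transcript lengths, overlaps and 3′-UTRs came from GENCODE M21 (GRCm38), matched by symbol, so coordinates are not in the files' build.

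The members and gene lists were chosen with earlier results of these data known. Values in every sample are given for members past both cutoffs and, in each role, for the highest level per length and the largest called rise and fall. From the other lists, values are given for genes past both cutoffs (at most 3 in each direction). They are also given for Ppara, Pparg, Ppargc1a and Fgf21. The other genes named were added for their role or a seed match after their values were seen. Some genes of these lists are counted but not reported singly here. No pair of samples within a group differed as little as sampling noise (chi-square per degree of freedom 2.12 to 7.18, near 1 for sampling noise). Alternatives were DESeq2 1.42.0, limma-voom (limma 3.58.1), edgeR with the size factors of DESeq2 or with upper-quartile factors, all genes with a read, at least 10 reads in every sample, the replicate number as a block, leaving out each sample, a 2-fold cutoff and glmTreat against 1.5-fold. No label or method names a batch.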

Additional observations from a re-analysis of the deposited data

How the results depend on the processing

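The count of 23 lower genes was 21 to 23 when each sample was left out in turn, 14 to 15 for the mitochondrial and 6 to 7 for the peroxisomal genes, with medians of -0.20 to -0.17 and -0.10 to -0.05. The number higher, 1 in all 6 samples, was 1 to 4 in these fits. It was 4 without control replicate 2 (Acot2 with Acaa1a, Acot8 and Pex14), 2 without control replicate 3 (with Pex7) and 2 without miR182 overexpression replicate 1 (with Cpt1a). Genes past both cutoffs numbered 1, and 1 to 2 in these fits: Acadvl, just short of 1.5-fold, joined Etfdh without control replicate 3 and without miR182 overexpression replicate 3, and the count was also 2 with upper-quartile factors. It was 0 by glmTreat and 0 at 2-fold, which ask for more than a point estimate past 1.5-fold or for a larger one. Fold changes near 0 turned sign without passing in either direction: Acads ranged from -0.073 to 0.012 in these fits, highest without miR182 overexpression replicate 1, and Hadhb from -0.091 to 0.05, with values of 0.05 without control replicate 2 and 0.001 without miR182 overexpression replicate 2. The replicate block left 23 lower, 1 higher and 1 past both cutoffs, and it changed no call among these genes. Same-numbered samples did not deviate together (correlations of -0.18, -0.04 and -0.08), so the shared numbers were not taken as pairs. DESeq2, limma-voom, other size factors and other filters kept the median log2 fold change of all genes between -0.02 and 0.00 (-0.004 in the test as reported). At 240 to 9225 reads per gene and sample, standard errors were 0.03 to 0.08 on the log2 scale for the 36 genes, so changes of a few percent in the genes with the fewest reads could not be resolved.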
